A study of Mus musculus with 23 samples.

Results

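The Mirg-side miRNA cluster lies at the distal end of the imprinted Dlk1-Dio3 locus on mouse chromosome 12 and runs from miR-379 to miR-410. Its members were chosen by name and position, not by their values: every assay, of either arm, for 35 miRNA names of this cluster. Of these names, 33 were on the assay table, with 46 assays out of 522 in all. The table gives the quantification cycle (Cq) of stem-loop RT-qPCR assays on total RNA from freshly isolated mouse retina of mixed background strain, with no treatment. A Cq is the amplification cycle at which an assay's signal crosses its threshold, so an early, low Cq stands for abundant RNA, and each cycle corresponds to about a 2-fold step. The 23 samples were profiled in 2 sets, and both include wild-type controls. The first set, of 13 samples, held 3 wild type (WT), 3 Chx10Cre; Rb lox/lox; p107 -/- (DKO), 3 Dicer1 lox/lox (DicKO) and 4 retinas with the DKO alleles together with Dicer1 lox/lox (DKO_DicKO). The second, of 10 samples, held 3 WT, 3 DKO and 4 DKO_P53KO retinas, and its labels give these genotypes by abbreviation only. Chx10Cre acts in retinal progenitor cells and their descendants, so the floxed alleles were left intact in other cells of the eye, whereas p107 was deleted throughout the animal. The label of the DicKO samples names no Cre. Ages, litters and the number of animals per sample are not stated, so each p-value below measures only the spread between these samples.

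At the Dlk1-Dio3 locus the protein-coding genes Dlk1, Rtl1 and Dio3 are expressed from the paternal chromosome, and the long noncoding RNAs Meg3, Rian and Mirg and the miRNAs from the maternal one. The miRNAs of the Mirg side are cut from long shared transcripts, are most abundant in neurons and the embryo, and include regulators of dendrites and synapses such as miR-134, miR-329, miR-381 and miR-485. Dicer1 makes the mature miRNA from its hairpin, Rb and p107 hold back E2F transcription factors at entry into the cell cycle, and p53 is a tumour suppressor that arrests or kills damaged cells.

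The sequences below are those of the members on which the results turn, read from RefSeq (GRCm38.p6) and written 5′ to 3′ with the seed, bases 2 to 8, in capitals. The seed is the stretch that pairs with a target, so it shows which members could share targets.
miR-379-5p: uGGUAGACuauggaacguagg
miR-411-5p: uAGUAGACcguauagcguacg
miR-411-3p: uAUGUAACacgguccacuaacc
miR-329-3p: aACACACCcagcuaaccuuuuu
miR-543-3p: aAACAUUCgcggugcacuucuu
miR-495-3p: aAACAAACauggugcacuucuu
miR-544-3p: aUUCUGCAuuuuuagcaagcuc
miR-409-5p: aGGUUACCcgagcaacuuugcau
miR-409-3p: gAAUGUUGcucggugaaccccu
miR-376b-5p: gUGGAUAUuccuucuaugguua
miR-382-5p: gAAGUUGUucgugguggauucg
miR-410-3p: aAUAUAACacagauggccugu

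RefSeq held 31 hairpins of the cluster, all on the plus strand of chromosome 12 between positions 109709060 and 109743795, a stretch of 34736 bases. Of these, 8 start within the gene RefSeq annotates as Mirg and 23 between the end of Rian and the start of Mirg. The 58 mature sequences of these hairpins carry 55 different seeds. The shared seeds are AUGUAAC of miR-379-3p and miR-411-3p, GGUUGUC of miR-410-5p and miR-494-5p, and UGGAUAU of miR-376b-5p and miR-376c-5p. The last pair differs at 1 of 22 bases, so the assay for the minor arm of miR-376b (miR-376b# on the table) may read both. MiR-543-3p and miR-495-3p differ at 4 of 22 bases but have different seeds. Of the 46 assays, 40 matched a RefSeq sequence. The 6 others were miR-299, miR-299-5p, miR-376c, miR-485-5p, miR-487b and miR-496, so none of the sequences above is that of the miR-376c assay. On the table # marks the arm named as minor in older nomenclature. Of the 40 matched assays, 9 have names that state the arm as 5p or 3p, and for the others the arm was assigned.

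A well was counted as detected at Cq 32 or below. In the second set 30 of the 46 cluster assays were detected in all 10 samples, and 37 gave a Cq in at least 1. In the first set none was detected in all 13 samples and 21 gave a Cq in at least 1. Per sample, the second set detected 32 to 34 cluster assays in WT, 33 to 34 in DKO and 30 to 34 in DKO_P53KO. DKO_P53KO replicate 3, with 30, lay below every WT and DKO sample, and the other DKO_P53KO samples lay within their range. In the first set WT detected 13, 19 and 13 and DKO 13, 14 and 14. DicKO detected 4, 12 and 1, and DKO_DicKO 12, 5, 4 and 0. One DicKO and 1 DKO_DicKO sample therefore came within 1 assay of the lowest WT sample, and the others lay far below.

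**Figure D1:**
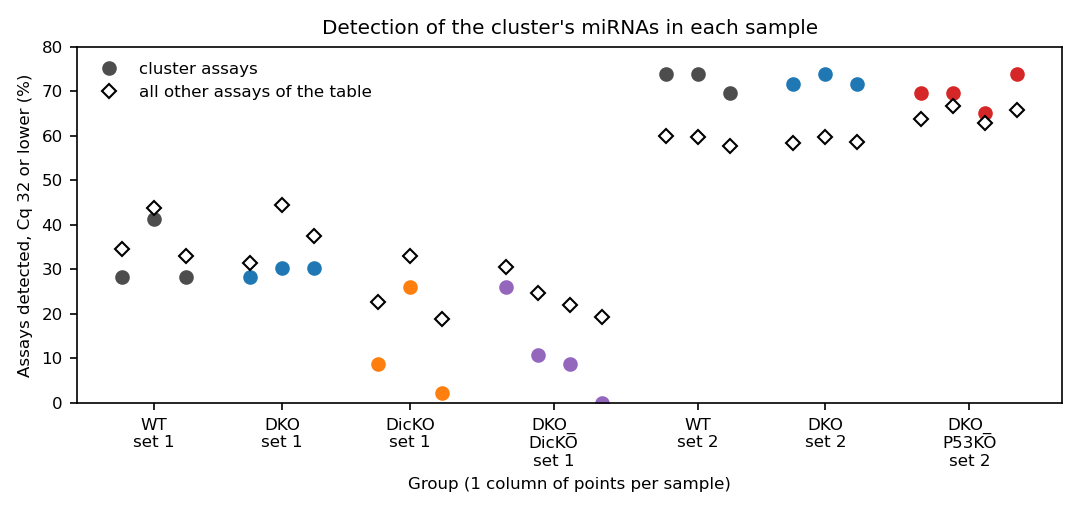
Percent of assays detected (Cq 32 or below) in each sample of the 7 groups, for the 46 cluster assays and for all other assays of the table. Cluster assays sit between 65.2% and 73.9% in the second set and between 28.3% and 41.3% in WT and DKO of the first. In DicKO and DKO_DicKO they sit between 0 and 26.1%. The other assays sit between 31.5% and 44.5% in WT and DKO of the first set. In DicKO and DKO_DicKO these other assays sit between 18.9% and 33.0%.

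The sets differed in sensitivity over the whole table. A first-set sample had 91 to 228 detected assays, and a second-set sample had 307 to 350. Of the cluster members, 16 gave a Cq in the second set and none in the first. Among these, 9 were undetermined in all first-set samples although they came at Cq 30 or below in every second-set sample, miR-382 for example at 19.2 to 21.7. Another 9 members gave no Cq in any of the 23 samples: miR-299, miR-299-5p, miR-300, miR-376c#, miR-382#, miR-453, miR-666-3p, miR-679 and miR-758. In the second set 3 more, miR-377, miR-380-3p and miR-487b, gave a Cq above 32 only. Of the level of these members nothing can be said. In a set, log2 relative quantity is the average Cq over every assay detected throughout that set, minus the Cq of the assay itself, and an undetected value was set to a floor of -7.40 in the second set and -2.94 in the first. The floor replaced 100 measured member values in the first set and 5 of 328 in the second, so the levels of the cluster rest mainly on the second set. Values of different assays are not compared with each other, since each primer pair has its own efficiency.

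In the second set the DKO_P53KO samples amplified earlier throughout. Averaged over 284 assays present in each of its samples, Cq was 23.59, 23.94 and 24.51 in WT, 24.60, 24.03 and 24.53 in DKO, and 22.74, 22.30, 23.39 and 22.61 in DKO_P53KO. The median log2 relative quantity of the 30 members detected in every sample was -0.99, -1.03 and -0.86 in WT and -0.91, -0.61 and -0.79 in DKO. In DKO_P53KO it was -0.93, -2.21, -2.52 and -1.16, so that replicates 2 and 3 stood apart from the other samples and replicate 1 lay inside the WT and DKO range. Marker miRNAs of retinal cell types also differed. The summed log2 level of the photoreceptor and sensory markers (miR-183, miR-96 and miR-182) was 7.70 to 7.87 in WT, 4.39 to 5.85 in DKO, and 5.18, 4.09, -2.58 and 3.53 in DKO_P53KO. That of the neuronal markers miR-124 and miR-9 was 8.25 to 8.33, 8.18 to 8.47, and 8.71, 8.47, 5.88 and 8.31. This sum pools both miRNAs, whose single assays are given further below. In these whole-tissue samples fewer cells of a type and less RNA per cell cannot be told apart.

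With Rb and p107 lost, no member of the cluster passed the test against WT in the second set. There 0 of 33 tested members differed between DKO and WT at an adjusted p of 0.05 (limma fit over all tested assays, Benjamini-Hochberg adjustment, two-sided), where 0.647% of all tested assays did, and 0 of 33 had an unadjusted p under 0.05. The median change was 0.24 on the log2 scale against 0.08 over all tested assays. Of the 33 changes, 30 were positive and 3 negative, from -0.17 to 1.10. MiR-379, at the proximal end of the cluster, measured 1.21, 1.27 and 1.53 in WT and 1.58, 1.71 and 1.68 in DKO. MiR-410, at the distal end, measured 0.59, 0.25 and 0.52 in WT and 0.41, 0.51 and 0.24 in DKO. The groups did not overlap for miR-379, miR-411, miR-496 and miR-666, each higher in DKO, and overlapped for the other 29. Over all tested assays 14.2% were higher and 13.6% lower in DKO without overlap, so a count of 4 in 33 is near the background.

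In the first set, fitted with all 4 genotypes, 0 of 7 tested members differed between DKO and WT, against 17.3% of all tested assays, and 1 of 7 had an unadjusted p under 0.05. Without WT replicate 3, 3 members were called lower in DKO, where 11.9% of all tested assays were called in either direction. With WT and DKO alone more assays are detected in every sample and the floor drops to -4.82, so that 13 members could be tested. MiR-376c and miR-409-3p were then lower in DKO, against 15.5% of all tested assays. The Cq of miR-409-3p was 27.5, 25.96 and 28.8 in WT and 30.2, 27.9 and 30.04 in DKO, and its change was -1.69 ± 0.40 (SE, adjusted p = 0.0352). MiR-376c came at 28.6, 25.97 and 27.6 in WT and 29.5, 27.9 and 29.2 in DKO, with a change of -1.21 ± 0.29 (adjusted p = 0.0352). Over the 13 members 11 changes were negative and 2 positive, with a median of -0.75 against -0.08 for all tested assays. MiR-485-3p, the arm opposite the miRNA that targets the synaptic vesicle protein SV2A, changed by -1.87, with an adjusted p of 0.0717.

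Whether the DKO effect differed between the sets was tested in a fit of the 12 WT and DKO samples of both sets. Averaged over the sets, 0 of 13 tested members differed between DKO and WT, where 13.8% of all tested assays did and 1 of 13 had an unadjusted p under 0.05. Their median change was -0.26 against -0.07. For the difference between the sets, 2 of 13 members passed, both with the higher DKO effect in the second set, against 18.6% of all tested assays. On this joint scale miR-409-3p was at -0.75, -1.26 and -2.26 in WT and -3.03, -2.93 and -3.38 in DKO of the first set. In the second it was at -0.56, -0.63 and -0.01 in WT and -0.09, -0.10 and -0.01 in DKO. WT and DKO were thus separate in the first set and overlapped in the second, and the DKO effects differed by 2.03 ± 0.47 (SE, adjusted p = 0.0283). For miR-376c the difference was 1.27 ± 0.35 (adjusted p = 0.0344). All 13 differences were positive, with a median of 0.86 against 0.13 over all tested assays, and what sets the profiling sets apart was not tested. Both calls depend on single libraries, since leaving out 1 library ended the call of miR-376c in 8 of 12 cases and that of miR-409-3p in 5 of 12. Without scaling both calls ended (adjusted p = 0.995), and that of miR-376c also ended under the replicate block (adjusted p = 0.0937). The count fell to 0 when the second set lost WT replicate 1, WT replicate 2 or DKO replicate 3, and also when WT replicate 2 or DKO replicate 3 was dropped from the first set. The shares of all tested assays called in these fits were 1.8%, 1.8%, 5.39%, 7.14% and 5.85% in this order. The count of members fell to 1 without second-set WT replicate 3, where 2.99% of all tested assays were called.

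With p53 lost in addition to Rb and p107, members of the cluster moved in opposite directions relative to the mean of all miRNAs. Of 33 members tested between DKO_P53KO and DKO, 16 fell, 2 rose and 15 did not pass, where 40.9% of all tested assays changed, 21.2% falling and 19.7% rising. The median member change was -0.98 against -0.05 for all tested assays. Against WT, 13 of 32 tested members were lower and 4 higher, where 47.0% of all tested assays changed, 25.2% lower and 21.8% higher, and the medians were -0.65 and -0.07. Both comparisons share the DKO_P53KO samples. The groups did not overlap for 17 members against DKO (14 lower, 3 higher), where 23.3% of all tested assays were lower and 21.8% higher without overlap. They did not overlap for 16 against WT (12 lower, 4 higher), where the shares over all tested assays were 27.9% lower and 25.8% higher. With only the assays detected in every sample, 13 of 30 members fell and 2 rose against DKO, where 41.2% of all tested assays changed. Against WT 12 of 30 were then lower and 4 higher, where 47.5% changed.

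These directions are relative to a mean that itself moved. Without any scaling, DKO_P53KO samples had the earlier Cq for most assays of the table: 197 were called higher and 3 lower against DKO, with a median of 1.53. On that unscaled basis the members were called 11 times higher and 1 time lower against DKO, with a median of 0.64. Against WT they were called 9 times higher and 2 times lower, with a median of 0.60, where all 330 tested assays had 159 higher, 12 lower and a median of 1.18. Of the 16 members that fell against DKO after scaling, 10 kept a negative unscaled change and 6 had a positive one. Only miR-485-5p was still called lower against DKO without scaling, and against WT miR-485-5p and miR-409-5p were. The amount of RNA put into each reaction is not stated, so only changes relative to the other miRNAs are described below.

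Among the members that fell, miR-329, miR-409-5p and miR-543 had the smallest adjusted p. MiR-329, an activity-dependent miRNA of dendrites, was at -2.70, -2.79 and -2.45 in WT, -2.47, -2.53 and -2.76 in DKO, and -4.59, -5.01, -4.80 and -4.30 in DKO_P53KO. Every DKO_P53KO sample lay below all others, and the change was -2.09 ± 0.22 against DKO (SE, 4.25-fold lower, adjusted p = 0.000309) and -2.03 ± 0.22 against WT (adjusted p = 0.000254). Without scaling the change against DKO was -0.46 and was not called (adjusted p = 0.329).

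MiR-409-5p was at -1.73, -1.93 and -1.62 in WT, -1.72, -1.15 and -1.70 in DKO, and -4.18, -4.90, -4.74 and -3.62 in DKO_P53KO. The groups were again separate, with changes of -2.84 ± 0.33 against DKO (7.14-fold lower, adjusted p = 0.000361) and -2.60 ± 0.32 against WT (adjusted p = 0.000379). MiR-543 was at 1.14, 0.93 and 0.92 in WT, 1.39, 1.52 and 0.96 in DKO, and -0.48, -0.92, -1.03 and -0.01 in DKO_P53KO. It too was lower in each of the 4 samples, with changes of -1.90 ± 0.28 against DKO (adjusted p = 0.00137) and -1.61 ± 0.28 against WT (adjusted p = 0.00183).

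MiR-668, miR-544, miR-496 and miR-666 fell as well. MiR-668 was at -0.83, -1.04 and -0.99 in WT, -0.63, -0.37 and -0.97 in DKO, and -3.35, -3.58, -5.06 and -1.66 in DKO_P53KO. MiR-544 was at 0.06, -0.28 and -0.42, then -0.74, 0.55 and -0.34, then -2.20, -2.69, -3.36 and -1.44. For both miRNAs the lowest value was that of DKO_P53KO replicate 3 and the highest of its group that of replicate 4, which was still below all WT and DKO samples. Their changes against DKO were -2.76 ± 0.64 (adjusted p = 0.00858) and -2.25 ± 0.46 (adjusted p = 0.00604). MiR-496 was at -3.89, -3.87 and -3.74 in WT, -3.64, -3.25 and -3.72 in DKO, and -4.55, -6.11, -6.48 and -5.69 in DKO_P53KO, a change of -2.17 ± 0.41 against DKO (adjusted p = 0.00399). MiR-666 was at -3.80, -3.85 and -3.58, then -3.48, -3.39 and -3.53, then -4.98, -6.27, -7.40 and -4.84, the value of replicate 3 being the floor, and changed by -2.40 ± 0.55 (adjusted p = 0.00842). Neither miRNA had overlapping groups. The calls of miR-329, miR-409-5p, miR-543, miR-668, miR-544, miR-496 and miR-666 held in both comparisons when any 1 library was left out. Those of miR-666 ended in both with a detection limit of Cq 35 (adjusted p = 0.0544 against DKO and 0.0674 against WT), and without scaling all 7 ended against DKO and all but that of miR-409-5p against WT.

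The largest fitted change was that of miR-485-5p, and it rests on undetermined wells. It was at -1.21, -1.25 and -1.78 in WT and -1.11, -0.72 and -2.01 in DKO. In DKO_P53KO 3 of 4 samples were undetermined and set to the floor, and replicate 4 was at -1.65, inside the WT and DKO range. The fitted change of -4.68 ± 1.28 against DKO (adjusted p = 0.0185) therefore depends on the floor and on that mix, and leaving out 1 library ended the call in 2 of 7 cases, with an adjusted p of up to 0.0628. The other arm, miR-485-3p, was detected in all 10 samples, at 1.18, 1.67 and 1.14 in WT, 1.66, 1.54 and 1.06 in DKO, and 1.29, 0.37, 0.69 and 1.44 in DKO_P53KO, with a change of -0.47 (adjusted p = 0.240). MiR-154 was at -3.89, -4.05 and -7.40 in WT, -4.22, -3.51 and -4.31 in DKO, and -7.40, -7.17, -7.40 and -5.76 in DKO_P53KO. Its change was -2.92 ± 0.81 against DKO (adjusted p = 0.0196), a call that ended without DKO replicate 2 (adjusted p = 0.0685) and at a detection limit of Cq 35 (adjusted p = 0.0625), and it was not tested against WT because 1 WT sample was undetected. MiR-485-5p, miR-154 and miR-666 were not detected in every DKO_P53KO sample, so they entered the tests only through the DKO or WT group. Their calls give no support of their own for a fall.

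The other 7 members that fell against DKO changed by less. MiR-369-5p was at -1.46, -1.47 and -1.02 in WT, -1.27, -0.64 and -0.86 in DKO, and -2.16, -2.75, -3.53 and -1.92 in DKO_P53KO, a change of -1.67 ± 0.38 (adjusted p = 0.00842) between groups that did not overlap. MiR-382 was at 4.08, 3.81 and 4.14, then 3.91, 4.33 and 4.07, then 3.52, 2.59, 1.72 and 3.28, and changed by -1.33 ± 0.40 (adjusted p = 0.0264). MiR-410 was at 0.59, 0.25 and 0.52, then 0.41, 0.51 and 0.24, then -0.03, -0.98, -1.46 and -0.14, and changed by -1.04 ± 0.35 (adjusted p = 0.0387). Both had separate groups, with replicates 2 and 3 lowest, yet their calls ended when 1 library was left out in 4 of 7 cases, and their unscaled changes were positive, at 0.30 and 0.59. MiR-667, miR-495, miR-369-3p and miR-412, named after their values were seen, changed by -1.38, -1.31, -1.28 and -1.19, also with positive unscaled values. Against WT, miR-667, miR-495, miR-382, miR-410 and miR-369-5p were lower too. The calls of miR-382, miR-410 and miR-369-5p each ended in 4 of 7 cases when 1 library was left out (adjusted p of up to 0.0875, 0.0875 and 0.0770). MiR-667 and miR-495 were not followed through the fits with 1 library left out. MiR-412 (adjusted p = 0.053) and miR-369-3p (adjusted p = 0.0635) did not pass.

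**Figure D2:**
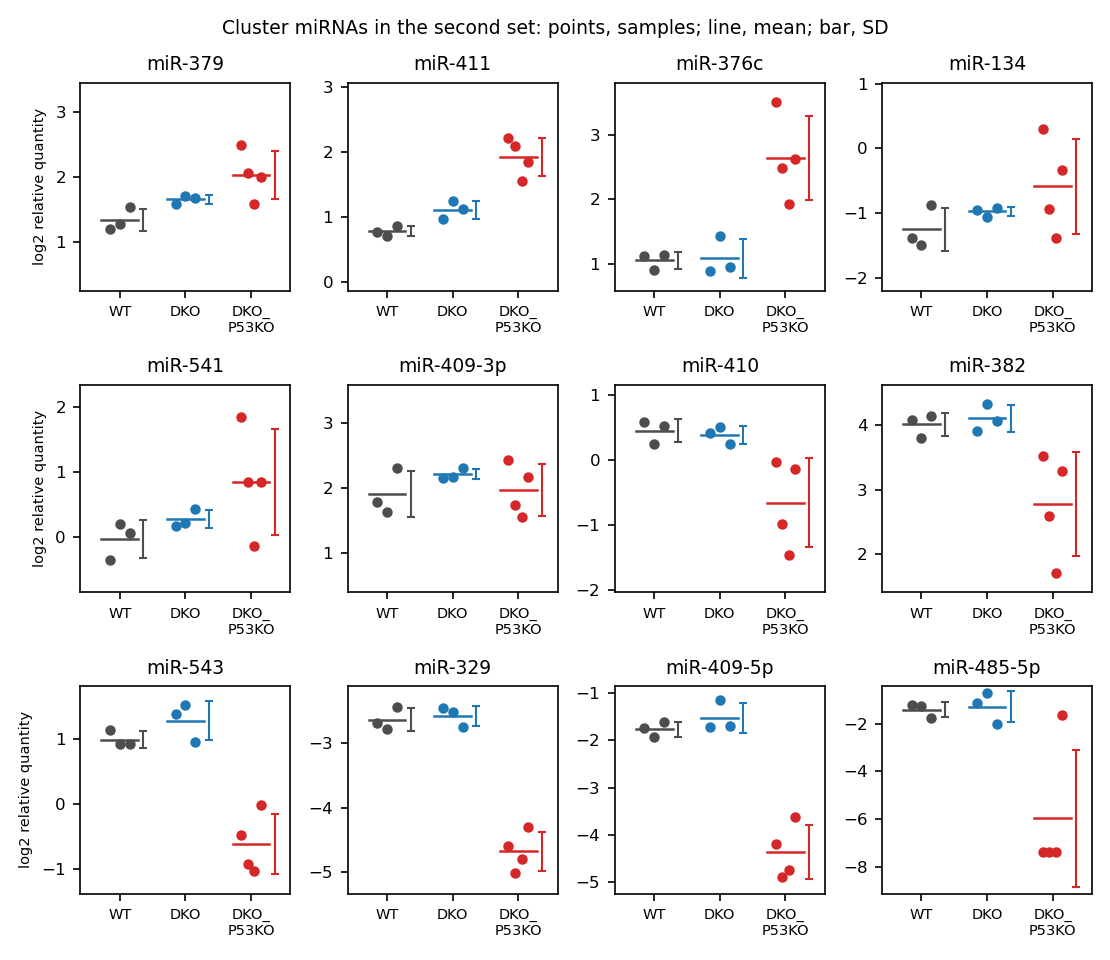
Log2 relative quantity of 12 cluster members in each sample of the second set, by group, with the group mean as a line and the SD as a bar. MiR-329, miR-409-5p and miR-543 lie lower in all 4 DKO_P53KO samples than in any other sample, miR-376c and miR-411 higher, and miR-485-5p is at the floor of -7.40 in 3 of 4.

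MiR-376c and miR-411 rose against both other groups. MiR-376c, of a family known for A-to-I editing, was at 1.12, 0.90 and 1.13 in WT, 0.88, 1.43 and 0.94 in DKO, and 3.51, 2.49, 1.93 and 2.62 in DKO_P53KO. All 4 values exceeded every other sample, and the change was 1.55 ± 0.35 against DKO (2.93-fold higher, adjusted p = 0.00801) and 1.59 ± 0.35 against WT (adjusted p = 0.00496). MiR-411 was at 0.78, 0.71 and 0.86 in WT, 0.97, 1.25 and 1.12 in DKO, and 2.22, 2.10, 1.55 and 1.85 in DKO_P53KO. It was again higher in each sample, by 0.82 ± 0.21 against DKO (adjusted p = 0.0155) and 1.15 ± 0.21 against WT (adjusted p = 0.00239), though without DKO replicate 1 the former call ended (adjusted p = 0.0632). Unscaled, the changes of miR-376c and miR-411 against DKO were 3.18 and 2.45.

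MiR-379 was at 2.49, 2.06, 1.58 and 2.00 in DKO_P53KO. Replicate 3 lay below 2 of the 3 DKO samples, and the change against DKO was 0.38, with an adjusted p of 0.214. Against WT it was higher by 0.70 ± 0.24 (adjusted p = 0.0369), a call that ended in 6 of 7 cases when 1 library was left out. The minor arm, miR-411#, was at -4.15, -3.82 and -3.81 in WT, -4.04, -3.60 and -4.02 in DKO, and -2.94, -3.30, -3.46 and -3.47 in DKO_P53KO. Its groups did not overlap, and it was higher against WT by 0.63 ± 0.22 (adjusted p = 0.0415) but missed the threshold against DKO at 0.59 (adjusted p = 0.0572). The WT call ended in 5 of 7 cases with 1 library left out. The calls of miR-379 and miR-411# against WT also ended with the mean taken over non-members (adjusted p = 0.0670 and 0.0730) and with the median in place of the mean (adjusted p = 0.0506 and 0.0614).

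Among the 15 members that did not pass against DKO were miR-134, which acts on the dendritic spine kinase Limk1, and miR-541. MiR-134 was at -1.38, -1.49 and -0.86 in WT, -0.95, -1.05 and -0.91 in DKO, and 0.30, -0.93, -1.38 and -0.33 in DKO_P53KO. MiR-541 was at -0.36, 0.20 and 0.06, then 0.17, 0.20 and 0.42, then 1.85, 0.85, -0.15 and 0.84. In both, replicate 1 was the highest sample of the set and replicate 3 lay within the WT range. The changes against DKO were 0.39 (adjusted p = 0.422) and 0.58 (adjusted p = 0.260). MiR-376a, at -0.93, -1.02 and -1.22 in WT, -1.25, -0.59 and -0.96 in DKO, and -0.62, -1.54, -2.48 and -0.65 in DKO_P53KO, changed by -0.39 (adjusted p = 0.484) with overlapping groups. The others were miR-381, miR-323-3p, miR-376b, miR-154#, miR-409-3p, miR-494, miR-376b#, miR-376a# and miR-380-5p, with changes from -0.98 to 0.12. Within the DKO_P53KO group, replicate 3 held the lowest value of all 10 samples for miR-376a, miR-376b and miR-381.

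**Figure D3:**
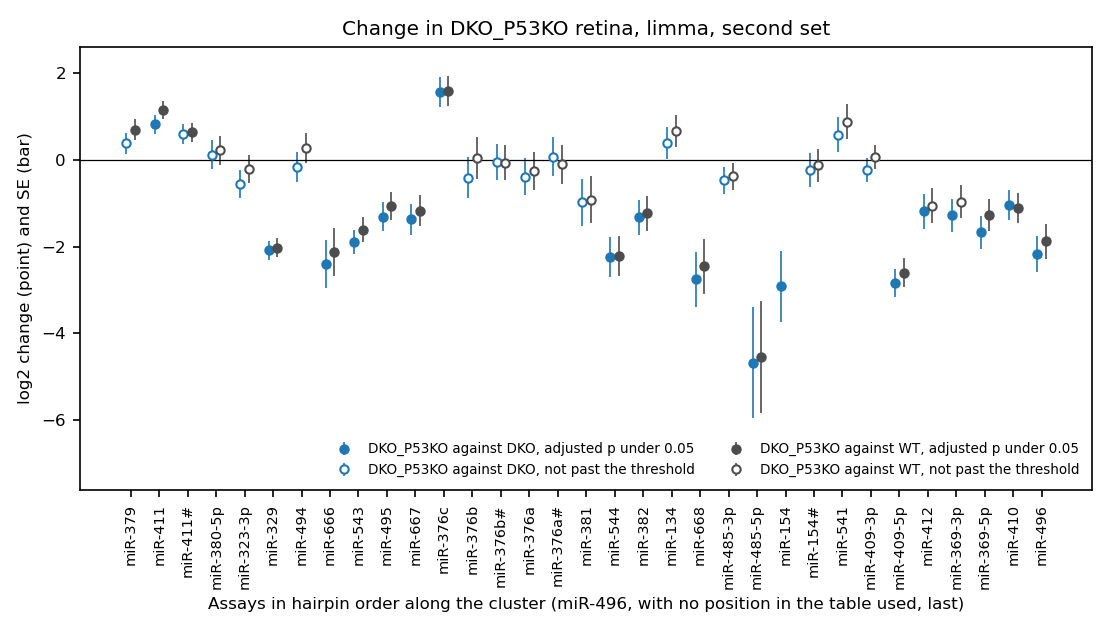
Log2 change ± SE of each tested member in DKO_P53KO against DKO and against WT, with members in the order of their hairpins along the cluster and filled points for an adjusted p under 0.05. The changes run from -4.68 to 1.55 against DKO, where miR-411 and miR-376c were called higher. Changes against DKO were more negative towards miR-410 (Pearson r of -0.35 with the order).

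Counts of called members moved with the libraries used. Against DKO, 11 members were called without DKO replicate 2, 14 without DKO_P53KO replicate 2 and 20 without DKO_P53KO replicate 3 (5 higher and 15 lower). The shares of all tested assays called in these fits were 26.4%, 36.9% and 48.5%, so the member counts moved with the whole table. Against WT, 9 were called without WT replicate 1 and likewise 9 without WT replicate 2, and 11 without DKO_P53KO replicate 2, where 34.1%, 33.0% and 39.6% of all tested assays were called. Without both DKO_P53KO replicates 2 and 3, the samples with the lowest members, 16 were called against DKO (5 higher, 11 lower) and 18 against WT (7 higher, 11 lower). Over all tested assays 75 were then higher and 75 lower against DKO, and 94 higher and 87 lower against WT, of 335 each.

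Other miRNAs were set beside the cluster. Of all tested assays, 40.9% were called between DKO_P53KO and DKO and 47.0% between DKO_P53KO and WT. Against DKO the other miRNAs of the locus and the neuronal miRNAs were called in 35.7% and 42.9% of cases, near the 40.9%. Of 14 tested miRNAs from the Rian and Meg3 side of the same locus, 5 fell and 0 rose between DKO_P53KO and DKO, with a median change of -0.63. They were miR-433 (-2.21), miR-770-5p (-1.89), miR-770-3p (-1.67), miR-127 (-1.24) and miR-337-5p (-0.77), named after their values were seen. Between DKO and WT of the second set 0 of these 14 passed, where 0.647% of all tested assays did, and their median was 0.23. Of 14 tested neuronal miRNAs outside the locus, 5 fell and 1 rose against DKO, with a median of -0.53. Of the 4 tested assays of miR-124 and miR-9, 1 fell against DKO and 2 against WT, and 0 rose. MiR-124a changed by -1.98 against DKO (adjusted p = 0.00163) and -2.99 against WT (adjusted p = 0.000194). MiR-124# changed by 0.39 (adjusted p = 0.505) and -2.05 (adjusted p = 0.0065). MiR-9 changed by -0.85 (adjusted p = 0.255) and -0.54 (adjusted p = 0.476). Photoreceptor markers fell in 1 of 4 cases (median -3.31) and both miR-204 and miR-211, abundant in lens, ciliary body and pigment epithelium, fell. Both vessel markers rose and 1 of 5 white blood cell markers rose. Against WT, 4 of 4 photoreceptor markers were lower, 3 of 5 white blood cell markers were higher and 0 of 2 vessel markers passed. The summed log2 level of the vessel markers was 4.13 to 4.46 in WT, 2.99 to 3.91 in DKO, and 5.31, 4.997, 5.47 and 4.19 in DKO_P53KO. For white blood cells and microglia, with 5 of 6 markers detected in DKO_P53KO, the sums were 2.70 to 3.22, 2.95 to 3.80, and 4.11, 3.47, 4.59 and 3.38. The red blood cell marker on the table was not detected. The part of these cell types in the change of the cluster was not tested.

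The arms of one hairpin are made from the same precursor, and the difference of their Cq in a sample does not depend on the scaling. Of 11 member hairpins with both arms on the table, 5 had both detected in all second-set samples: miR-376a, miR-376b, miR-411, miR-369 and miR-409. Over all 44 such hairpins of the table, a limma fit called 45.5% between DKO_P53KO and DKO, 56.8% between DKO_P53KO and WT, and 0% between DKO and WT. For miR-409 the log2 ratio of the 5p to the 3p arm was -3.52, -3.56 and -3.92 in WT, -3.87, -3.31 and -4.001 in DKO, and -6.61, -6.62, -6.29 and -5.78 in DKO_P53KO. The DKO_P53KO samples were separate, with a change of -2.60 ± 0.27 against DKO (SE, limma adjusted p = 4.25e-05) and -2.66 against WT. A two-sided exact permutation test gave p = 0.0571, the smallest that 4 samples against 3 can give, and 0.286 after Benjamini-Hochberg adjustment over 15 tests. The 3p arm itself measured 1.78, 1.63 and 2.30 in WT, 2.15, 2.17 and 2.30 in DKO, and 2.43, 1.73, 1.55 and 2.16 in DKO_P53KO, so the groups overlapped and its change was -0.24 (adjusted p = 0.484). Both strands are among the sequences printed above.

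For miR-411 the log2 ratio of the major arm to miR-411# was 4.93, 4.53 and 4.67 in WT, 5.01, 4.84 and 5.14 in DKO, and 5.16, 5.40, 5.01 and 5.32 in DKO_P53KO. It was higher by 0.51 against WT (limma adjusted p = 0.0431, exact permutation p = 0.0571) and by 0.23 against DKO (limma adjusted p = 0.310). The ratios of miR-376a, miR-376b and miR-369 were called in no comparison by limma.

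**Figure D4:**
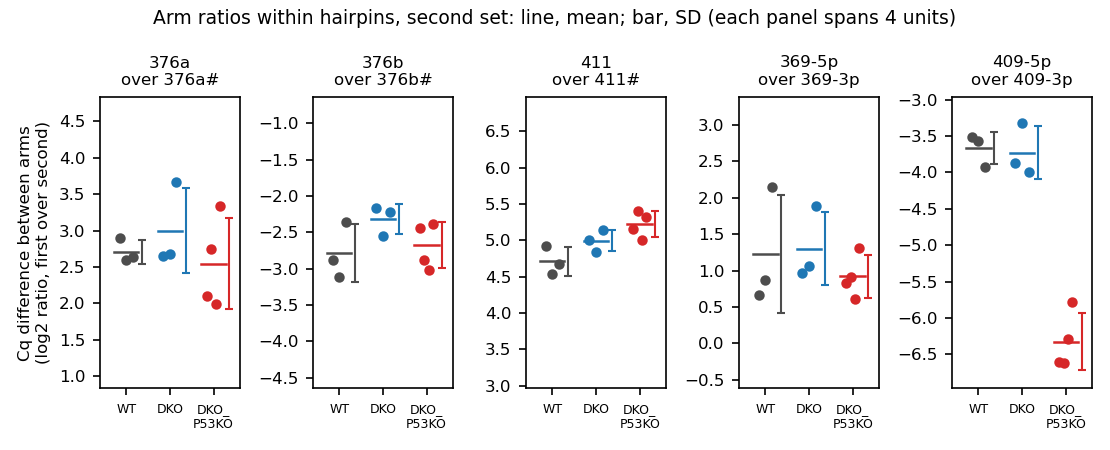
Difference in Cq between the arms of miR-376a, miR-376b, miR-411, miR-369 and miR-409 in each sample of the second set, by group. The ratio of miR-409-5p to miR-409-3p lies between -6.62 and -5.78 in DKO_P53KO and between -4.001 and -3.31 in the WT and DKO samples.

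Features that did not enter the choice of members were set against the change between DKO_P53KO and DKO, as a description over members that share all libraries. The change had a Pearson r of -0.35 and a Spearman rho of -0.35 with the order along the cluster (n = 29), with more negative values towards miR-410. With the GC content of the mature sequence r was -0.08 (n = 28), and with the mean Cq in WT -0.07 (n = 30). The median change was 0.09 over 10 assays of 5p arms and -1.01 over 18 assays of 3p arms. Against WT these medians were 0.08 and -0.94. Most of these arms were assigned rather than stated in the assay name. Among these 10 assays of 5p arms, miR-409-5p, miR-369-5p and miR-382 fell against DKO, so the medians do not divide the arms. MiR-485-5p also fell but was not among them, since it was not detected in every sample.

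Samples with Dicer1 lox/lox were in the first set only. Of 7 members tested between DicKO and WT, 1 passed, where 36.1% of all tested assays did, and it was higher in DicKO: miR-376b#, by 0.96 ± 0.30 (adjusted p = 0.0332). Its Cq was 29.1, 26.6 and 28.1 in WT and 29.2, 27.8 and 30.9 in DicKO, so the raw values overlapped and were not earlier in DicKO. All 3 WT values lay at the floor, the unscaled change was -1.37, and leaving out 1 library ended the call in 5 of 6 cases. Without WT replicate 3, 3 members were called, all lower in DicKO, and without DicKO replicate 3, 1 was called, also lower. In these fits 24.6% and 19% of all tested assays were called, most of them lower. Without WT replicate 1, WT replicate 2 or DicKO replicate 1, 0 were called, where 26.3%, 20.6% and 18.8% of all tested assays were. The sample means were later in DicKO, at 27.58, 25.40 and 29.06 against 25.17, 23.28 and 24.99 in WT over the 61 assays detected in every sample, none of them a member.

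The Cq of each sample show which members were no longer detected. MiR-379 was detected at Cq 28.1, 26.1 and 28.6 in WT and was undetermined in all 3 DicKO samples. MiR-495, at 27.5, 25.6 and 28.1 in WT, and miR-667, at 29.7, 28.6 and 30.5, were likewise undetermined in all 3 DicKO samples. MiR-409-3p, at 27.5, 25.96 and 28.8 in WT, gave a Cq of 30.2 in DicKO replicate 2 only. MiR-411 (28.6, 26.1 and 27.9 in WT) and miR-376c (28.6, 25.97 and 27.6 in WT) persisted in 2 of 3 DicKO samples, miR-411 at 31.3 and 27.995 and miR-376c at 31.8 and 27.9. DicKO replicate 2 was the sample with the earliest mean Cq of its group and with most members detected.

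No Cq of the first set lies above 32, so a limit of Cq 35 adds no detected well. It lowers the floor to -5.94, the value then given to undetermined wells. With this floor 11 members were tested between DicKO and WT and 4 fell, against 31.1% of all tested assays. These were miR-495 (-3.37 ± 0.66, adjusted p = 0.0034), miR-379 (-2.79 ± 0.60, adjusted p = 0.00506), miR-409-3p (-2.62 ± 0.46, adjusted p = 0.00232) and miR-667 (-0.81 ± 0.27, adjusted p = 0.0477). The median of the 11 was -1.01 against -0.77 for all tested assays, and miR-376b# was no longer called (1.49 ± 0.95, adjusted p = 0.212). All these changes rest on values set to a floor and are not fold changes. Their size and adjusted p depend on where that floor is put. The 4 members that fell passed the filter only through WT, where every sample detected them. Their calls therefore give no support of their own for a fall.

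In the Rb and p107 deficient retina, 0 of 6 members tested differed between DKO_DicKO and DKO, where 32% of all tested assays did and 0 of 6 had an unadjusted p under 0.05. Without DKO_DicKO replicate 4, 1 member was called higher, where 35.6% of all tested assays were called in either direction. With the floor at Cq 35, 1 of 12 fell, against 29.9% of all tested assays: miR-495, with a change of -2.26 ± 0.61 (adjusted p = 0.0171). Its Cq was 28.7, 26.3 and 28.3 in DKO, 29.2 in DKO_DicKO replicate 1 and undetermined in the other 3 samples. MiR-495 passed the filter through DKO alone, and the size of this change too depends on the floor. MiR-379 gave 27.5 and 28.9 in 2 of 3 DKO samples and 30.5 in DKO_DicKO replicate 1 only. MiR-411 was seen in more samples, at 29.0, 27.4 and 28.7 in DKO and 29.1, 31.4 and 29.9 in 3 of 4 DKO_DicKO samples. MiR-485-3p likewise gave 31.0, 27.0 and 28.9 in DKO and 29.4, 30.9 and 30.2 in 3 of 4 DKO_DicKO samples. DKO_DicKO replicate 4 had no cluster assay detected, and replicate 1 had 12.

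Between DKO_DicKO and DicKO 0 of 1 tested member passed, where 0% of all tested assays did, with either floor, and its unadjusted p was not under 0.05. The change with Dicer1 lox/lox was also compared between the DKO and the WT background. There 0 of 7 members differed, against 5.93% of all tested assays, and 0 of 7 had an unadjusted p under 0.05. With the floor of -2.94 most member values were set to it, so a difference could hardly show.

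**Figure D5:**
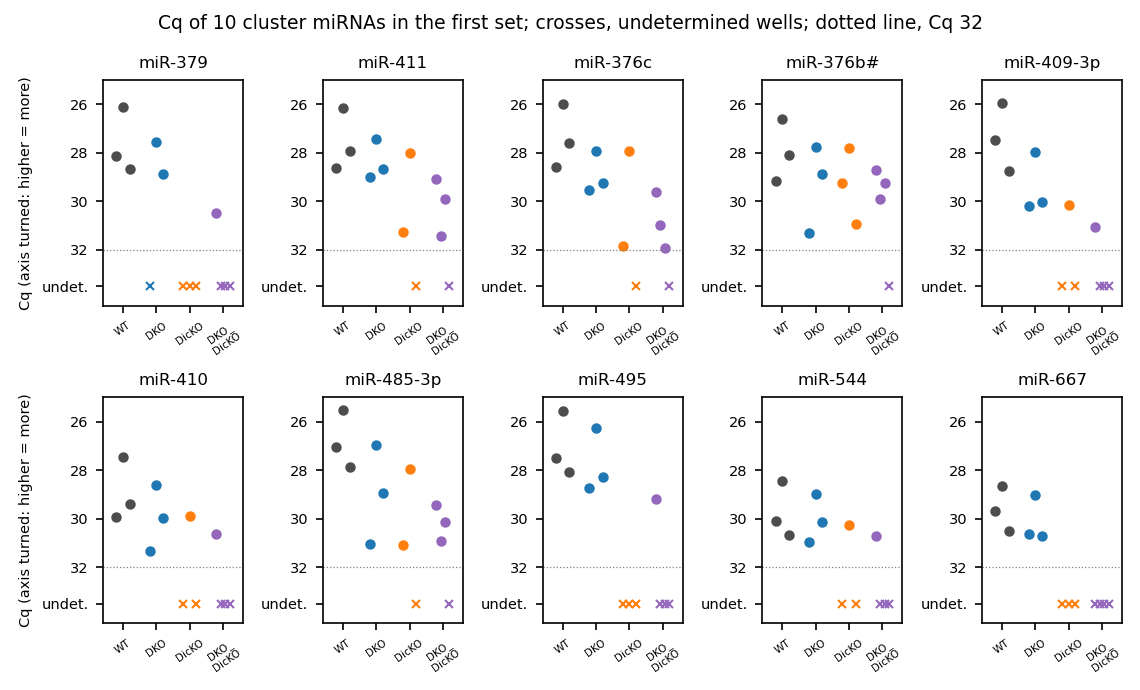
Cq of 10 cluster members in each sample of the first set, with crosses for undetermined wells and a dotted line at Cq 32. MiR-379, miR-495 and miR-667 are undetermined in all 3 DicKO samples, whereas miR-376b# is detected in all 3.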

How the data were processed

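The authors deposited 1 table of Cq values for 522 assays in 23 samples. Per the labels, RNA was extracted with microRNeasy, reverse transcribed with a pool of 522 stem-loop primers and preamplified for 14 cycles; the instrument software and threshold are not given in the sources used here. Another 10 columns, empty and unnamed, were not used. Samples were grouped by title and description. From the deposited Cq, log2 relative quantities were computed per set (61 assays in the mean of the first, 284 of the second, 145 over both). Assays entered a test when every sample of 1 or more of the compared groups detected them. The linear models were those of limma (version 3.58.1, run in R 4.3.3, with moderated variances), all groups of a set in 1 fit, with Benjamini-Hochberg adjustment over all tested assays at 0.05. The procedure was tested on simulated data.

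The members, marker lists and tests were chosen with earlier results of these data known. Beside the fixed examples miR-379, miR-410, miR-134, miR-329, miR-376a, miR-376c, miR-382, miR-485, miR-541 and miR-543, the text names every called member, or the 10 largest where more were called, those called against the majority, and hairpins with both arms. Alternatives covered scaling, detection limit, floor, filter, samples in the fit, replicate block and each library left out. Numbers were taken to pair samples where the deviations of all 3 same-numbered pairs correlated at over 0.1, which was so for WT and DicKO of the first set (r of 0.13 to 0.51). The block left 1 of 7 members called there, where 42.1% of all tested assays were called. The arm fit with limma, and the fits without DKO_P53KO replicates 2 and 3, were added after seeing the data.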

Additional observations from a re-analysis of the deposited data

Results flagged for a closer look

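In DKO_P53KO, replicate 4 stood apart from the other 3 samples for miR-485-5p, at -1.65 where the others were undetermined and set to the floor of -7.40. For miR-154 the same sample was at -5.76, with the others at or near the floor. By chance alone about 1 in 20 groups holds a sample this far from the others, and both results lie where the floor removes the spread of the others. The DKO effect differed between the profiling sets for miR-376c, by 1.27, and for miR-409-3p, by 2.03 on the log2 scale, each higher in the second set, as tested by the difference in 1 fit over both sets. The cause was not tested.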

How the results depend on the processing

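Counts of called members depended on the processing as follows, and the cause was not tested. For DKO against WT in the first set (0 of 7), 2 of 13 were called with undetected values left missing. With the compared groups alone 2 of 13 were called. Of all tested assays, 12.7% and 15.5% were called in these fits. For the difference of the DKO effect between sets (2 of 13), 0 of 13 were called without scaling. With undetected values missing 5 of 13 were called. With assays detected in every sample it was 4 of 10, and with the replicate block 1 of 13. The shares of all tested assays called were 0%, 21.3%, 23.4% and 2.4% in this order. DKO_P53KO against WT (17 of 32) gave 11 of 32 without scaling, where 51.8% of all tested assays were called. DicKO against WT (1 of 7, higher) gave 8 of 11 without scaling and 4 of 11 with a limit of Cq 35, all of them lower. With the compared groups alone it gave 2 of 7 (1 higher, 1 lower). The shares of all tested assays called there were 61.5%, 31.1% and 44%. With the median in place of the mean 1 of 7 was called, but lower, where 38.3% of all tested assays were called. DKO_DicKO against DKO (0 of 6) gave 2 of 12 without scaling and 1 of 12 at Cq 35, all of them lower. With undetected values missing it gave 1 of 5, which was higher. The shares of all tested assays called there were 63.1%, 29.9% and 39.5%.

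Without scaling miR-410 turned to 0.59 against DKO and 0.15 against WT in DKO_P53KO, miR-382 to 0.30 and 0.021, and miR-376b# to -1.37 in DicKO. With 1 library left out, the counts ran from 11 to 20 for DKO_P53KO against DKO and 9 to 19 for DKO_P53KO against WT. The shares of all tested assays called in these fits ran from 26.4% to 48.5% and from 33.0% to 51.7%. Counts of 0 to 3 each held for DKO against WT in the first set, the difference between sets and DicKO against WT. The shares there were 5.26% to 14.3%, 1.8% to 22.2% and 18.8% to 36.8%. For DKO_DicKO against DKO the count was 0 to 1 and the share 23.3% to 42.1%. The other 4 comparisons stayed at 0. The replicate block left 17 members called for DKO_P53KO against DKO (2 higher, 15 lower), with 41.2% of all tested assays. For DKO_P53KO against WT it left 16 (2 higher, 14 lower), with 45.8% of all tested assays. The numbers of these groups share no stated origin, and same-numbered samples correlated at 0.078 to 0.117 and -0.091 to 0.051. No member of the first set was detected in every sample, so that filter gave no value there. Of single-member values, 1163 kept their side of the threshold (1102 with the same sign and 61, none of them called, with the other), 98 lost a call, 32 gained one and 5 called values reversed.

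Sensitivity limits the first set most, where no Cq lies above 32 and most DicKO and DKO_DicKO values are undetermined.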
